A study of Drosophila melanogaster with 3 samples.

Results

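The genes of 7 Drosophila melanogaster proteins that set up chromatin boundaries were examined for binding by Aef1-eGFP in embryos. These were BEAF-32, CTCF, su(Hw), Cp190, Chro, mod(mdg4) and pzg, named by symbol among 13945 protein-coding genes on the 6 main chromosome arms. The list was chosen with earlier results of these data known, so the counts below are descriptive and were not tested. A region found in 3 replicates touched the span of 6 of the 7 genes extended by 5 kb on either side (85.7%), against 30.7% of all protein-coding genes. CTCF counted only through the edge of a peak whose summit lay outside its window, and mod(mdg4) through regions away from its own start. With the summit required inside the window the count was 5, against 31.5% of all protein-coding genes. A summit lay within 500 bp of a transcript start of the gene in each of 3 replicates at 4 of the 7 (57.1%), against 11.3% of all protein-coding genes. The 4 were Chro, Cp190, pzg and BEAF-32. The strongest peak among all 7 genes was at Chro, and su(Hw) had a peak in replicate 1 alone.

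Aef1, adult enhancer factor 1, is a zinc finger protein that binds CAACAA repeats. The transgenic flies expressed Aef1 fused to enhanced green fluorescent protein (eGFP), and chromatin of whole embryos aged 0 to 24 h was immunoprecipitated with an antibody against GFP after sonication to a size range of 200 to 800. All 3 biological replicates belonged to 1 group with the same genotype and age and no named treatment, and an untagged or input sample was not analysed here. In whole embryos, strong binding in few cells and weak binding in many cannot be told apart. A peak's strength is given as its rank percent, its place in the replicate's list divided by the length of the list, so that low values are strong peaks. The place follows the signal, which is the authors' own value for each peak and serves here only to rank and describe peaks within a list.

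The replicates held 3495, 3126 and 2942 peaks in replicates 1, 2 and 3, filtered by the authors on the irreproducible discovery rate (IDR), a measure of how well the order of peaks repeats. Their unfiltered lists held 29199 to 49093 peaks. Peaks overlapping between replicates by at least 1 bp were joined into 4290 regions, and 2081 of these, called shared regions here, contained peaks of 3 replicates. Taken singly, replicates 1, 2 and 3 had peaks in the windows of 7, 6 and 6 of the insulator protein genes, against 43.2%, 39.4% and 37.9% of all protein-coding genes. The number of reads behind the lists is unknown. All 3 replicates' lists also drew on a common further input whose role is not stated, so finding a peak in 3 replicates is not fully independent evidence.

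Insulator proteins mark boundaries between chromatin domains and limit contact between enhancers and promoters. In Drosophila, DNA-binding factors such as BEAF-32, CTCF and Su(Hw) read their own sequence elements and bring in shared cofactors, chiefly Cp190 and Mod(mdg4), which carry BTB domains. Chro, also called Chromator or Chriz, is a chromodomain protein of polytene interbands that is found together with the zinc finger protein encoded by pzg, also called Z4, and with BEAF-32 at many housekeeping promoters. What follows concerns Aef1-eGFP at the genes that encode these proteins, not binding by the proteins themselves.

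Bases at or near the summits are shown here, with no line for BEAF-32. The line for the CTCF window shows a CAA run beside the summit and not the summit itself. At these genes no whole CAACAA, the element known for Aef1, lay within 50 bp of a region's summit. Most shared regions also lacked it there, with 17.7% of all 2081 holding it. The summit of a region is the median over its replicates. A single replicate's summit can lie closer to the word, as at pzg in replicate 2. The sequences are from RefSeq Release 6 (dm6), on the + strand, 5′ to 3′. Capitals mark any of 10 searched words on either strand. In the lines below these are CGATA, the element of BEAF-32, in Chro, pzg and Cp190, TGCATA, the core of Su(Hw), in the mod(mdg4) intron, TATAAA before tin and su(Hw), and CAACAACAA in the qm leader. The Chro, pzg, intronic mod(mdg4) and qm windows lie in 5′ untranslated sequence (5′ UTR) and are kept short.
Chro, leader sequence at the summit (chr3L:22878880-22878909): tgtattgcctgtCGATAgctttaaactaac
Chro to Ssl1, all bases between their starts (chr3L:22878985-22879088): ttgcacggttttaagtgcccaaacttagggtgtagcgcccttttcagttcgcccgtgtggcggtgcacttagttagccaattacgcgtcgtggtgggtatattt
pzg and CG12974, beside the summit (chr3L:21285900-21285929): tttcaagtaaataattacgtTATCGtaatg
Cp190 to CG4338, all bases between their starts (chr3R:15275242-15275521): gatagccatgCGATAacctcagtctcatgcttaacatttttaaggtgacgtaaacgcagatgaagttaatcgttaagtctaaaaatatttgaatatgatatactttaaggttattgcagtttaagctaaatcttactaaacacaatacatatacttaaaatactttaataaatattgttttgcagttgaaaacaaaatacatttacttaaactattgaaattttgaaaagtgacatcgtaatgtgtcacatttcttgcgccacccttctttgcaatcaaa
mod(mdg4), summit in the intron (chr3R:21365416-21365445): taaattatagcaaaaTATGCATAttggtat
mod(mdg4) window, summit before tin (chr3R:21378736-21378836): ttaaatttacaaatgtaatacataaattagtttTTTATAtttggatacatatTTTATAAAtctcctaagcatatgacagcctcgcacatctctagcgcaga
CTCF window, the CAA run in the qm leader (chr3L:7348580-7348609): acaagaaaaaCAACAACAAcggcgacaaca
su(Hw), summit of its peak in replicate 1 (chr3R:14308858-14308958): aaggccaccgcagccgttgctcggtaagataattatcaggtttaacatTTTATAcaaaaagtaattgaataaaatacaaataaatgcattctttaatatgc

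The stretch from Cp190 to CG4338 is 280 bp long and held no CAACAA on either strand, and neither did the 104 bp from Chro to Ssl1. The CAACAACAA in the qm leader is the only one in the regions printed here, and it starts 94 bp from that region's summit.

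**Figure D1:**
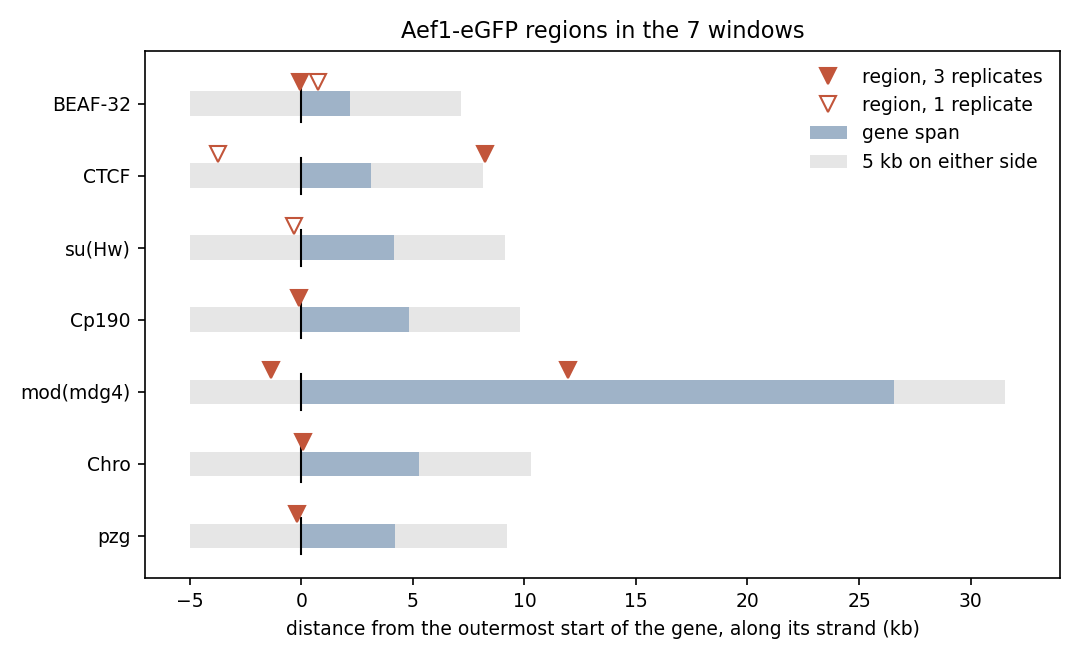
The span of each insulator protein gene (blue bar) with 5 kb on either side (grey), drawn along its strand in kb from its outermost start. Filled triangles are region summits with a peak in 3 replicates and open triangles those with a peak in 1. In 4 windows the filled triangle stands next to the start, whereas the CTCF triangle lies at the far edge and mod(mdg4) carries 1 in the gene and 1 upstream.

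Chro held the strongest Aef1-eGFP peak of the 7 genes. The gene (FBgn0044324) lies on 3L from 22873702 to 22878984, on the minus strand, and has 3 annotated starts. Its peak was number 16 of replicate 1, number 15 of replicate 2 and number 12 of replicate 3, with signals of 778, 715 and 679.6. These are rank percents of 0.458, 0.480 and 0.408 (mean 0.449 ± 0.0369, SD, n = 3), and the region was in place 14 of the 2081 shared regions by mean rank percent. In each of the 4 lists that the authors deposited for the series as a whole, the Chro peak was number 13. Cp190 was likewise number 347 in each, so these lists share their order there and are not counted as separate evidence. All 3 replicates thus placed the Chro peak among their 20 strongest peaks.

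The Chro summits lay 89, 86 and 101 bp downstream of the outermost start, in the 5′ UTR of Chro. Ssl1, which encodes a subunit of the transcription factor TFIIH, starts 105 bp away on the opposite strand, and the summits were 194, 191 and 206 bp upstream of it. All 3 peaks covered the Chro start, and none had its summit between the 2 starts. A CGATA had its midpoint 1 bp from the region's summit, as the capitals in the Chro line show. The nearest CAACAA was 1414 bp away.

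The gene pzg (FBgn0259785, 3L from 21286099 to 21290310, plus strand) had a weaker peak at its start than Chro in every replicate. It was number 752, 754 and 555 in replicates 1, 2 and 3, with rank percents of 21.5, 24.1 and 18.9 (mean 21.5 ± 2.63, SD, n = 3) and signals of 125, 104 and 117. The summits lay 147, 232 and 192 bp upstream of the pzg start. CG12974 starts 137 bp from pzg on the opposite strand, and the same summits were 10, 95 and 55 bp downstream of its start, in its 5′ UTR. The peak is therefore counted for pzg by distance but lay closer to the start of its neighbour in each replicate. The summits spread over 85 bp, against a median of 28 bp (quartiles 15 and 47) over all shared regions. A CGATA lay 15 bp from the region's summit, and the nearest CAACAA 73 bp from it.

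Cp190 encodes the cofactor that joins most Drosophila insulator complexes. The gene (FBgn0000283) lies on 3R from 15270432 to 15275241, on the minus strand, and CG4338 starts 281 bp away in the opposite direction. The peak was number 281, 473 and 285 in replicates 1, 2 and 3, with signals of 210.2, 136 and 168 and rank percents of 8.04, 15.1 and 9.69 (mean 11.0 ± 3.71, SD, n = 3). The peak was weakest by rank in replicate 2. The summits lay 96, 135 and 103 bp upstream of Cp190 and 185, 146 and 178 bp upstream of CG4338, so all 3 were between the 2 genes and closer to Cp190. The 101 bp around the summit were 24.8% G and C, against a median of 31.7% over the shared regions. None of the 10 words lay within 50 bp of the Cp190 summit, and the nearest CAACAA was 341 bp from it. The CGATA in the printed stretch lies outside those 50 bp, near the Cp190 start.

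The mod(mdg4) gene encodes a large family of BTB proteins made by trans-splicing, of which an isoform serves the gypsy insulator together with Su(Hw). It is the longest of the 7 genes, with 26556 bp (FBgn0002781, 3R from 21350846 to 21377401, minus strand). Its window holds 25 other protein-coding genes, of which 23 are annotated pre-mod(mdg4) models, the units whose transcripts supply the variable last exons. Neither of its 2 shared regions lay at its own start.

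The upstream region of the mod(mdg4) window lay 1379, 1385 and 1400 bp upstream of the mod(mdg4) start in replicates 1, 2 and 3. It was 197, 191 and 176 bp upstream of tin, which encodes the heart homeobox factor Tinman and runs the other way. The peak was number 251, 484 and 386 with rank percents of 7.18, 15.5 and 13.1 (mean 11.9 ± 4.28, SD, n = 3). TATAAA matches, 3 in number, lay within 50 bp of its summit, the nearest at 4 bp, and 2 of these overlap on opposite strands.

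The other mod(mdg4) region lay in an intron, 11960, 11973 and 12000 bp from the mod(mdg4) start. The same bases are 5′ UTR of pre-mod(mdg4)-E, whose start was 47, 60 and 87 bp upstream of the summits. This peak was number 375, 414 and 471 with rank percents of 10.7, 13.2 and 16.01 (mean 13.3 ± 2.64, SD, n = 3). The mod(mdg4) regions overlapped in their ranges of rank percent, and the tin region was stronger in replicates 1 and 3. At the intronic summit TGCATA occurred in 2 overlapping matches, 1 on each strand, centred 5 and 7 bp away.

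The BEAF-32 gene (FBgn0015602) encodes a boundary factor that binds CGATA clusters near housekeeping genes. It lies on 2R from 14770469 to 14772630, on the plus strand, with 3 annotated starts and no divergent protein-coding neighbour within 500 bp. Its shared peak was number 664, 996 and 867 in replicates 1, 2 and 3, with signals of 135, 87.6 and 91.0. The rank percents were 19.0, 31.9 and 29.5 (mean 26.8 ± 6.84, SD, n = 3), strongest in replicate 1. The summits lay 54, 37 and 47 bp upstream of the outermost start, within 17 bp of each other, over an exon of the antisense RNA gene asRNA:CR42254. Replicate 1 called only 79 bp there, while the other 2 replicates called 310 bp. The peak lists carry no strand, so the peak cannot be assigned to BEAF-32 or to the antisense gene.

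A further BEAF-32 peak appeared in replicate 3 only, 74 bp upstream of an inner start of the gene at 14771301. It stood at number 2872 of 2942, a rank percent of 97.6, with an IDR of 0.00669. In the unfiltered list of replicate 1 an overlapping peak had an IDR of 0.0218, and in that of replicate 2 an IDR of 0.699. The inner site was thus near the bottom of 1 list and under the threshold in the other 2.

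CTCF encodes the Drosophila homologue of the vertebrate insulator factor. The gene (FBgn0035769) lies on 3L from 7353578 to 7356713, on the minus strand. The region that counts for it lay 8217 bp downstream of its start, in the 5′ UTR of qm, which encodes a geranylgeranyl diphosphate synthase. The summits were 183, 183 and 184 bp from the qm start, within 1 bp of each other. The peak was number 563, 1327 and 312 in replicates 1, 2 and 3, with signals of 146, 73.3 and 161 and rank percents of 16.1, 42.5 and 10.6 (mean 23.1 ± 17.0, SD, n = 3). Replicate 2 had it far lower in its list than the other replicates.

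The qm peak entered the CTCF window by 32, 73 and 32 bp only, and its summit was outside. CTCF lost its region when the summit had to be inside the window, and when the window was the gene span alone or with 1 kb. A second peak in the window was in replicate 1 only, 111 bp upstream of Sec63, which encodes a component of the endoplasmic reticulum translocation machinery, with a rank percent of 80.5. At the CTCF start itself the unfiltered lists held peaks with summits 198, 58 and 125 bp downstream, with IDRs of 0.412, 0.565 and 0.564 in replicates 1, 2 and 3. None of these came near the threshold of 0.01.

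The qm region differed in base composition from the others. Its summit window was 58.4% G and C, a value that 97.8% of the shared regions did not exceed, whereas the other members' summit windows ranged between 24.8% and 36.6%. It held 5 CAACAA in its 310 bp, all on the + strand and starting 46 to 109 bp downstream of the summit. The pzg region held 1 and the other shared regions of these genes none, while 41.7% of all shared regions held at least 1 anywhere.

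The su(Hw) gene encodes the zinc finger protein that binds the gypsy insulator. It lies on 3R from 14304455 to 14308589, on the minus strand (FBgn0003567), and Polr2I, which encodes a subunit of RNA polymerase II, starts 500 bp away in the opposite direction. Replicate 1 had a peak between them, number 2270 with a rank percent of 64.9 and a signal of 59.9. Its summit lay 319 bp upstream of su(Hw) and 181 bp upstream of Polr2I, so it was closer to Polr2I. Replicates 2 and 3 had no peak at su(Hw) in the filtered lists.

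The unfiltered lists held a peak there in each replicate, with IDRs of 0.000532, 0.877 and 0.0237 in replicates 1, 2 and 3. Replicate 3 placed the summit 295 bp upstream of su(Hw) and missed the threshold. Replicate 2 had only a weak listed peak with its summit 497 bp upstream of su(Hw), beside the Polr2I start and away from the summits of replicates 1 and 3. Of the 4 lists of the whole series, 2 held a peak in this region, at rank percents of 63.6 and 68.1. At su(Hw) the replicates thus differed in whether a listed peak passed the threshold.

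**Figure D2:**
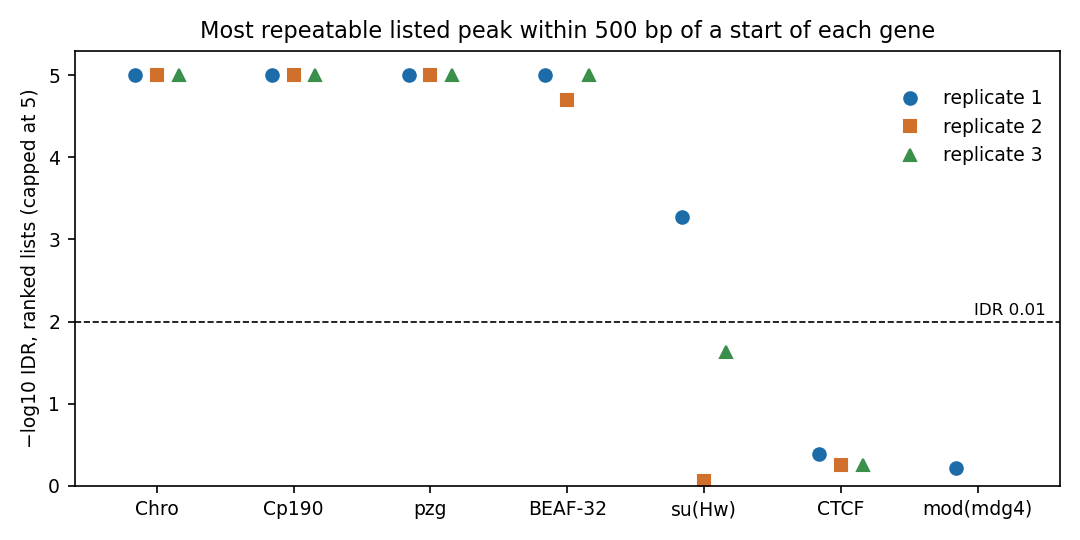
The −log10 IDR (capped at 5 by the authors) of the most repeatable peak of the unfiltered lists within 500 bp of a start of each gene, by replicate; the dashed line is an IDR of 0.01. Chro, Cp190, pzg and BEAF-32 lie above the line in 3 replicates and su(Hw) in 1, and CTCF and mod(mdg4) lie below it wherever a peak is listed.

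**Figure D3:**
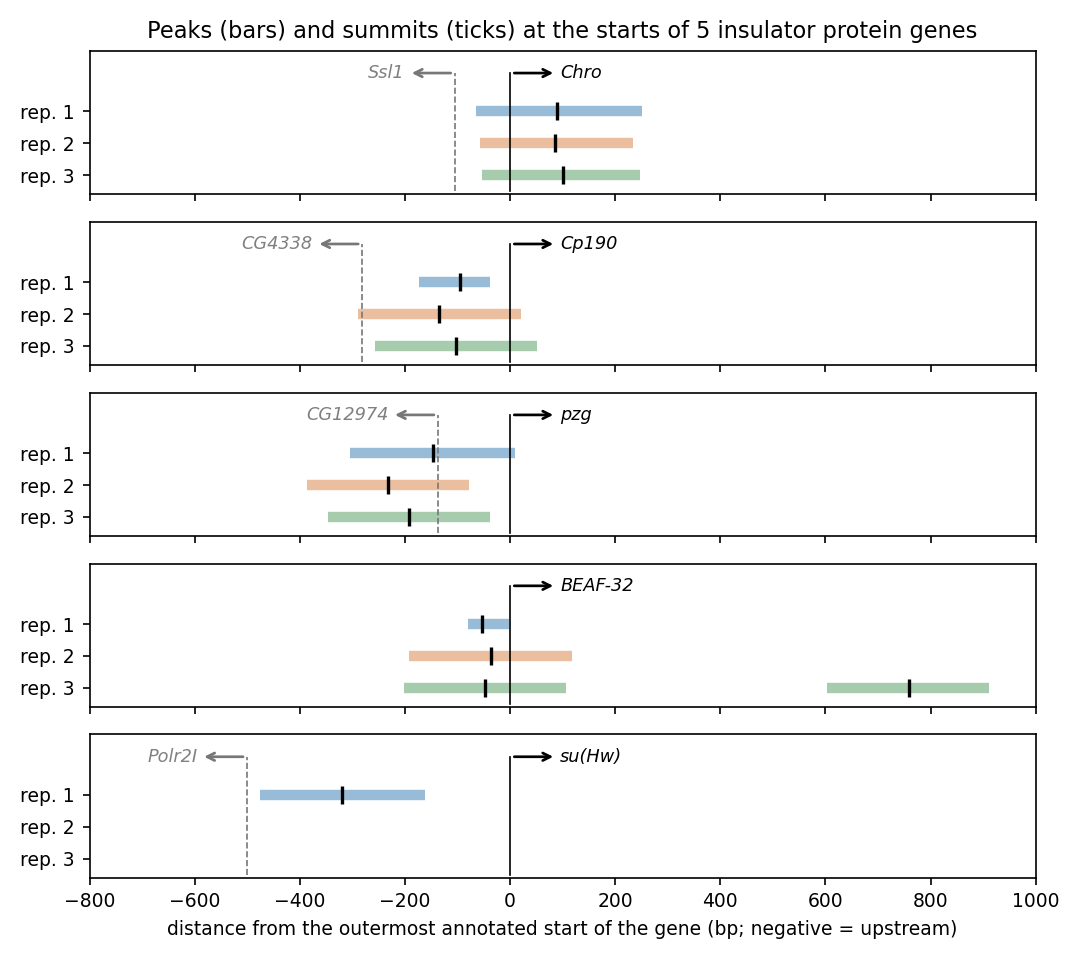
Peaks (bars) and summits (black ticks) of the filtered lists by replicate, in bp from the outermost start of 5 genes, with any divergent protein-coding neighbour within 500 bp dashed. The Chro summits lie 86 to 101 bp inside the gene, and those of Cp190, pzg, BEAF-32 and su(Hw) lie upstream of the outermost start, except for the inner BEAF-32 peak of replicate 3.

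Ordered by the mean rank percent of the strongest peak in the window, Chro came first at 0.449, followed by Cp190 at 11.0, mod(mdg4) at 11.2 ± 3.46 (SD, n = 3), pzg at 21.5, CTCF at 23.1 and BEAF-32 at 26.8. The highest value of Chro, 0.480, was below the lowest of Cp190, 8.04. Cp190 and mod(mdg4) overlapped in their ranges, and so did pzg, CTCF and BEAF-32 as neighbours in the order. Between mod(mdg4), with a highest value of 13.2, and pzg, with a lowest of 18.9, the ranges did not overlap. The tin and intronic regions taken singly reached 15.5 and 16.01, also below 18.9. The CTCF values of 16.1, 42.5 and 10.6 also overlapped those of Cp190 and mod(mdg4), and in replicate 3 CTCF was stronger than mod(mdg4) at 13.1. Without replicate 2 the CTCF mean was 13.4, ahead of pzg at 20.2 and behind mod(mdg4) at 10.2. Chro was thus separated from the other genes in all replicates, and the place of CTCF in the order rested on replicate 2. When peaks were ranked by IDR instead, Chro, Cp190, mod(mdg4) and pzg were tied at 14.3, since their peaks stand at the cap.

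**Figure D4:**
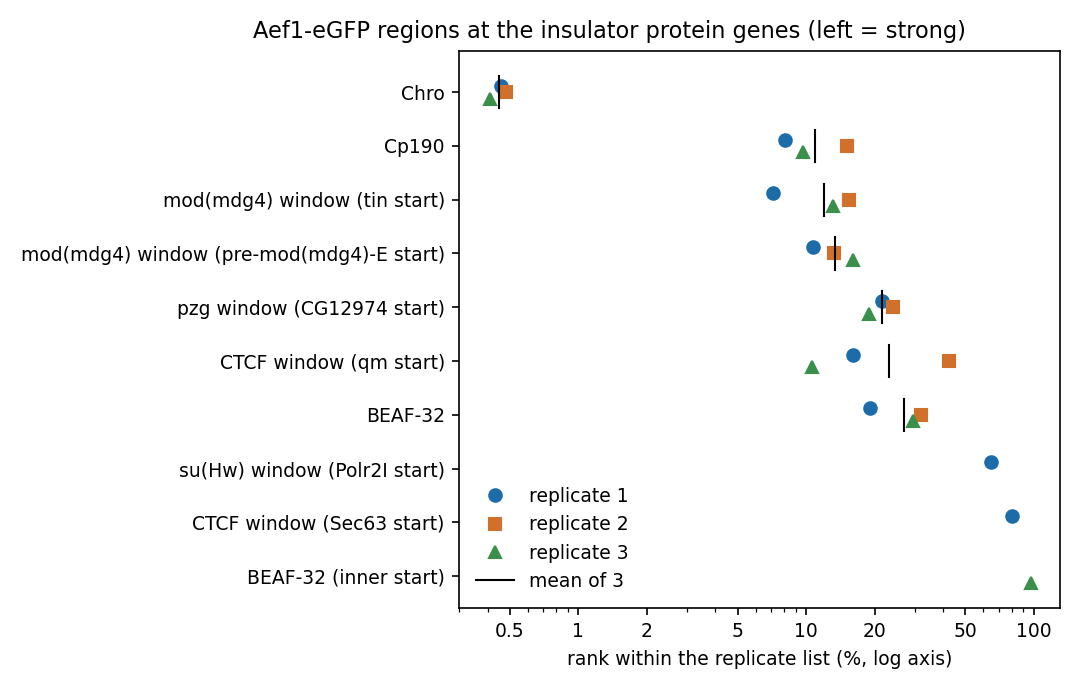
Rank percent of each region in the 7 windows on a log axis, by replicate, with a black bar at the mean of 3 replicates. Chro stands between 0.408 and 0.480 in all replicates, the remaining regions with 3 replicates lie between 7.18 and 42.5, and the regions found in 1 replicate are at 64.9 or more.

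The share of genes counted varied with gene length and with neighbours. Of the 7, 6 span at most 6 kb, and among the 10986 genes of such spans 27.7% had a shared region in the window and 1104 a summit near a start in 3 replicates. For mod(mdg4), genes of 20 to 30 kb give 45.1% by the window. Divergent starts were sought among protein-coding genes only. Such a start within 500 bp was present at 4 of the 7, Chro, Cp190, pzg and su(Hw), of which the first 3 had a summit near a start in 3 replicates. Among all 3686 genes with such a neighbour the share was 24.0%. Of the 3 without it, BEAF-32 alone had the summit, against 6.70% of all 10259 genes of that kind. The members were not tested against these shares.

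Of the 10 words searched on both strands within 50 bp of the summit, 7 occurred neither in the 7 shared regions of these genes nor at su(Hw). Among them were TATCGATA, the DNA replication-related element, AGNNGGCGC, the core of CTCF, GAGAG, the GAGA factor element, and GGTCACACT, Motif 1. They were in 1.54%, 2.21%, 9.61% and 0.577% of the 2081 shared regions and in 2.27%, 1.04%, 15.9% and 0.935% of 19253 promoter windows of the same length centred 100 bp upstream of a start. CAACAA was in none of the members' windows, against 17.7% of all shared regions and 10.2% of promoters. CAACAACAA was in 5.05% and 0.997% of these, and CAGGTAG, the Zelda element, in 0.336% and 0.660%. The absence of CAACAA from the members' windows depends on the 50 bp limit and on the summit used. The qm window ended at 7348546, inside a CAACAA at 7348542 to 7348547. At pzg the replicate 2 summit, 21285867, lay closer to a CAACAA, at 21285832 to 21285837, than the region's summit did.

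CGATA was in the Chro and pzg windows, and in 15.0% of the shared regions and 19.5% of promoters. TGCATA was in the intronic mod(mdg4) window, and in 7.93% of the shared regions and 5.65% of promoters. TATAAA was in the tin window and at su(Hw), and in 22.5% of the shared regions and 16.3% of promoters. CGATA is part of TATCGATA, and CAACAA is part of CAACAACAA. A match of these letters is a description of the window and names no bound factor.

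Of 26 other genes of boundary and promoter architecture, 10 had a shared region in the window (38.5%), against 30.7% of all protein-coding genes, which is near that background. A summit near a start in 3 replicates was found at 7 of the 26 (26.9%), against 11.3% of all protein-coding genes. Among 12 DNA-binding factors the counts were 4 by window (33.3%) and 3 by start, and among 14 partners and structural complexes 6 (42.9%) and 4. No test was made on these lists. Most genes of both lists, like most protein-coding genes, had no shared region in the window. Among these were the cohesin subunits SMC1, SA1 and vtd and the loader Nipped-B. The SMC3 window was met by a region whose peak in replicate 1 did not itself reach it.

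Trl, which encodes the GAGA factor, had a summit near a start at rank percents of 14.9, 19.2 and 20.7 (mean 18.3 ± 3.00, SD, n = 3), and a stronger peak elsewhere in its window at 1.20, 0.928 and 0.884. M1BP, which encodes the factor of Motif 1, had 41.4, 37.8 and 20.4. Dref, which encodes the factor of the DNA replication-related element, had 71.7, 77.3 and 86.8. At its start Trl was thus near the level of pzg. By the strongest peak in the window it stood behind Chro but ahead of Cp190 and pzg in every replicate. Dref lay in the lower part of each list.

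Among the partners, shep, which encodes an RNA-binding protein that acts on gypsy insulators, averaged 23.4 ± 6.73 at its start. Cap-H2, of condensin II, averaged 43.3 ± 17.5, fs(1)h, a BET bromodomain gene, averaged 59.8 ± 4.76, and JIL-1 averaged 70.5 ± 14.3 (SD, n = 3 each). JIL-1 encodes a histone H3 kinase found with Chro and the pzg product at interbands. The Chro and pzg starts ranked ahead of the JIL-1 start in every replicate. By the strongest peak in the window, JIL-1 averaged 10.4, shep 21.1, fs(1)h 27.6 and Cap-H2 43.3. On that measure JIL-1, at 6.49, 15.2 and 9.59, stood behind Chro but ahead of pzg in every replicate.

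**Figure D5:**
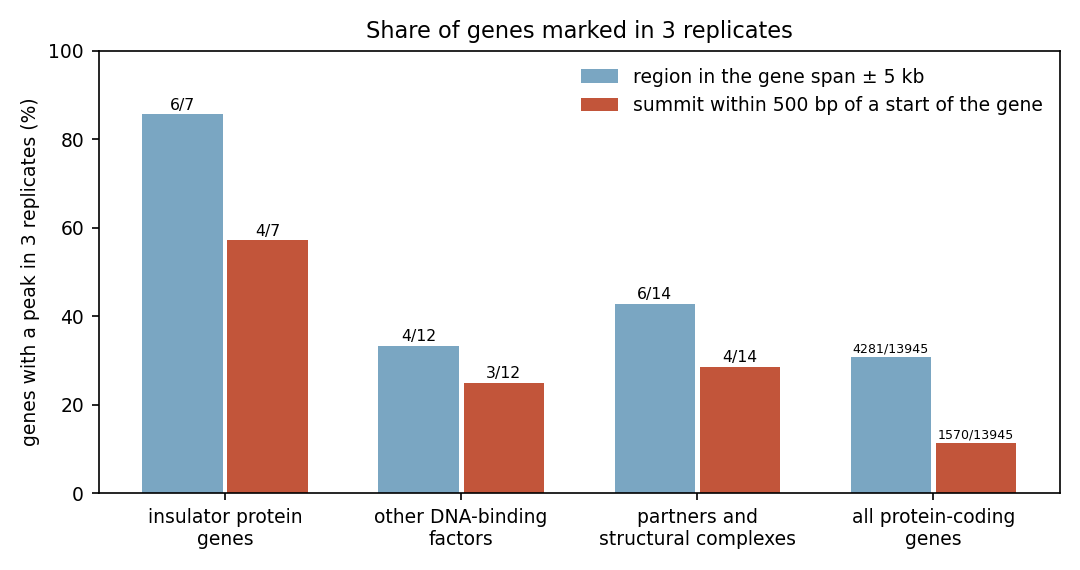
Percent of genes with a shared region in the gene span extended by 5 kb (blue) and with a summit within 500 bp of a start in each of 3 replicates (red), with counts above the bars. The insulator protein genes stand at 85.7% and 57.1%, and all protein-coding genes at 30.7% and 11.3%, with the other lists between.

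The genes most like Chro, Cp190 and mod(mdg4) in their pattern were sought by the sum of absolute differences in rank percent of the strongest window peak over the 3 replicates. Genes that share the member's own peak were left out. Nearest to Chro were FBgn0003607, the gene of heterochromatin protein 1a, and CG8419, which share 1 peak at 0.343, 0.544 and 0.442, a summed difference of 0.212. Nearest to Cp190 were l(2)dtl, at 6.58, 15.1 and 9.62 with a summed difference of 1.59, and JIL-1, at 6.49, 15.2 and 9.59 with 1.74. Nearest to mod(mdg4) were Cpr78Cc and CG7632, which share 1 peak at 6.44, 14.1 and 13.5, a summed difference of 1.95. The mod(mdg4) pattern used for this was not that of a single peak. It took replicates 1 and 3 from the tin region and replicate 2 from the intronic region. Each of these patterns rests on 3 values.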

How the data were processed

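Peak lists from chromatin immunoprecipitation of Aef1-eGFP, 3 biological replicates of 1 group, were used. The authors deposited, on dm6 per the labels, a ranked and an IDR-thresholded list for each replicate and 4 thresholded lists for the series, whose replicates are not named. Per the deposited file listing, each replicate's lists drew on its own alignments and on a further input of unstated role that is the same for all 3 replicates, so the lists are not fully independent. The signal of each peak in the deposited lists has no stated scale. The deposited score runs from 830 to 1000, and the −log10 IDR in the deposited ranked lists is capped at 5, so all thresholded peaks have an IDR of about 0.01 or less. The aligner and the peak caller were not given in the sources used here. Of the labels, the antibody field names Aef1 and the description anti-GFP. Depth is unknown, so no interval is given.

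Peaks off the 6 main arms (9, 22 and 18) were left out. Genes came from Ensembl release 115 (BDGP6.54) and sequence from RefSeq Release 6. Each region was centred on the median summit of its replicates. The overlap rules recovered all planted genes in simulated peaks on well separated genes. Close neighbours and peaks at a window edge were not simulated. Python 3.11.15, numpy 2.4.6, pandas 2.3.3 and matplotlib 3.10.9 were used. No test was run on the members: counts stand beside the share of all genes.

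Named were the 7 genes, up to 4 genes with the lowest mean rank percent in each of the 2 lists of the 26 architectural genes among those with a summit near a start in 3 replicates, the nearest start to each region, and the 2 genes most like each of the 3 strongest members. Other genes were named after their values were seen. SA was matched as SA1. Members and lists were chosen with earlier results of these data known. Alternatives were flanks, promoter distances, IDR thresholds, the 4 series lists, ranking by IDR and leaving out each replicate.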

Additional observations from a re-analysis of the deposited data

How the results depend on the processing

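The same 4 genes, Chro, Cp190, pzg and BEAF-32, had a summit near a start under every alternative run for that count: distances of 250 and 1000 bp, an IDR of at most 0.001, the ranked lists at an IDR of at most 0.05, the 4 series lists, and leaving out each replicate. All genes then stood between 8.63% and 16.8%. The window count was 6 or 5, with CTCF lost with no flank, with 1 kb, and with the summit rule, and all genes stood between 11.5% and 42.9%. The 26 other architectural genes gave 5 with no flank against 10 with 5 kb. The median over 6 genes of the mean rank percent was 16.3, and 11.8 to 17.3 when a replicate was left out. Ranking by IDR put Chro, Cp190, mod(mdg4) and pzg at 14.3, since peaks at the cap are tied, so their order is not seen on that scale. Without replicate 2, CTCF averaged 13.4 in place of 23.1. No paired analysis was possible because the study has 1 group. With peak lists alone, a gene without a peak is only one not listed at these thresholds.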
